A study of Homo sapiens with 6 samples.

Results

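The genes described here are the cyclin Y host gene CCNY, its paralogue CCNYL1 and 4 PCTAIRE/PFTAIRE kinase genes, CDK14, CDK16, CDK17 and CDK18. These genes were chosen by name, with earlier results of these data known. They are 6 of the 58288 gene identifiers in the count table, and all 6 passed the filter on low counts that left 14415 genes to be tested. The study knocked down circ235, a circular RNA made from CCNY exons, in T24 cells, an established human bladder cancer line, and sequenced mRNA to look for genes acting downstream of it. The cells received a control siRNA (siControl in the labels, NC below), si-circ235-1 (siRNA1) or si-circ235-2 (siRNA2), with 2 libraries in each of the 3 conditions. No allele, time or dose distinguishes the conditions in the labels, and T24 is a single line of 1 tumour origin. The labels call the libraries of a condition biological replicates without naming separate cultures, so the p-values below measure the spread between these libraries, which may be partly technical.

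Cyclin Y is an unusual cyclin that sits at the inner face of the plasma membrane through a myristoyl group on its N-terminus. There it binds and activates CDK14, and the complex phosphorylates the Wnt co-receptor LRP6 in late G2 and mitosis, which primes the cell to answer Wnt ligands. Cyclin Y also activates CDK16, a step that involves 14-3-3 proteins, while CDK17 and CDK18 are the closest relatives of CDK16.

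The libraries held 15373992 to 19912893 counts, and TMM factors, which correct for differences in RNA composition, ran from 0.89 to 1.19. At an adjusted p under 0.05, edgeR called 847 genes for si-circ235-1 against NC, 4530 for si-circ235-2 against NC and 5725 for si-circ235-2 against si-circ235-1. Single libraries weighed on these counts: 769 genes were called for si-circ235-2 against NC without NC replicate 1, 74 for si-circ235-1 without NC replicate 1 and 0 without si-circ235-1 replicate 2, and 2817 between the siRNAs without si-circ235-1 replicate 2. Leaving out the TMM factors moved the median of all tested genes, as a log2 fold change, from -0.033 to -0.11 for si-circ235-1 and from -0.0038 to 0.25 for si-circ235-2, and the si-circ235-2 calls went from 2270 higher and 2260 lower to 3173 higher and 1294 lower. The epithelial keratins KRT8 and KRT18 and the mesenchymal marker VIM were abundant in all 6 libraries, whereas the epithelial markers KRT19 and CDH1 were under 1 CPM in all 6, and the urothelial markers UPK3A and KRT20 and the leukocyte markers PTPRC and CD3E were at 0 in all 6. The summed level of the 6 epithelial markers was 3899 to 5566 CPM (counts scaled to a common library size, after TMM) in NC, 4262 to 4592 under si-circ235-1 and 3057 to 3642 under si-circ235-2. The summed level of the 8 luminal urothelial markers was 25.9 to 27.5 CPM in NC, 42.4 to 50.5 under si-circ235-1 and 54.2 to 54.8 under si-circ235-2, most of it PPARG (23.2 and 22.6, 39.5 and 45.9, and 49.2 and 51.1 CPM). The summed level of the 5 leukocyte markers was 3.12 to 3.21 CPM in NC, 10.7 to 11.2 under si-circ235-1 and 2.01 to 2.71 under si-circ235-2, most of it CD14. The part of these differences in the results below was not tested.

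CCNY (ENSG00000108100.17) occupies chr10:35247025-35572669 on the plus strand (GRCh38), and circ235 takes exons 4 to 7 of transcript CCNY-203, at chr10:35516523-35530243. Those 4 exons of 101, 36, 58 and 120 bases add up to 315 bases, or 5.48% of the exonic bases of the gene. The 3 splice junctions below are shown because both siRNAs were designed against circ235. Linear CCNY-203 carries exons 4 to 7 too, beside its other exons, and of these junctions only the back-splice belongs to the circle. Capitals mark the bases after the junction, and every sequence reads 5′ to 3′.
circ235 back-splice, exon 7 to exon 4: gccatcgtcaccctgCATCCTCCAGGACAA
linear CCNY, exon 3 to exon 4: ctcttcattaaccatCATCCTCCAGGACAA
linear CCNY, exon 7 to exon 8: gccatcgtcaccctgGTGTACCTTGAAAGA
The back-splice shares its first 15 bases with the linear junction of exons 7 and 8 and its last 15 with the linear junction of exons 3 and 4. The siRNA sequences were not used here. The counts are of polyadenylated RNA, which circular RNA lacks, so the knockdown of circ235 itself was not measured in these libraries.

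The kinases carry the short motif in the cyclin-binding helix that named the family. The codons for this motif are shown to set CDK14, the only PFTAIRE kinase of these 4, apart from the 3 PCTAIRE kinases. Capitals mark the codon that makes the difference. All are coding exon sequence of GRCh38, written in the direction of the gene.
CDK14, chr7:90790631-90790651, plus strand, exon 4: cctTTCacagctatcagggaa
CDK16, chrX:47225081-47225101, plus strand, exon 6: cccTGCaccgccatccgggaa
CDK17, chr12:96298870-96298890, minus strand, exon 7: cccTGCacagctataagagaa
CDK18, chr1:205526158-205526178, plus strand, exon 6: cccTGCactgccatccgagag
Over these 21 bases, CDK14 and CDK17 each differed from CDK16 at 5 positions and CDK18 at 3. Each gene had 1 form of the run in all its coding transcripts that held the motif, 4 for CDK14, 6 for CDK16, 3 for CDK17 and 5 for CDK18.

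None of the 6 genes passed the threshold under si-circ235-1, and the lowest p-values there belonged to CDK14 and CDK16, both with higher values than in NC. si-circ235-2 raised CCNYL1, CDK14 and CDK17 and lowered CDK18, with CCNY and CDK16 near the NC level. The quasi-likelihood test of edgeR, with p-values adjusted by the Benjamini-Hochberg method, called 0 of the 6 genes for si-circ235-1, where it called 5.88% of all tested genes (2.24% higher, 3.64% lower). Before adjustment 2 of the 6, CDK14 and CDK16, had a p under 0.05, as did 3644 of the 14415 tested genes. DESeq2 called 2 of the 6 and 1448 of all tested genes. For si-circ235-2 edgeR called 4 of the 6, 3 higher and 1 lower, against 31.4% of all tested genes (15.7% higher, 15.7% lower). Both comparisons share the NC libraries. In such bulk libraries fewer cells expressing a gene and less RNA of it per cell cannot be told apart.

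**Figure D1:**
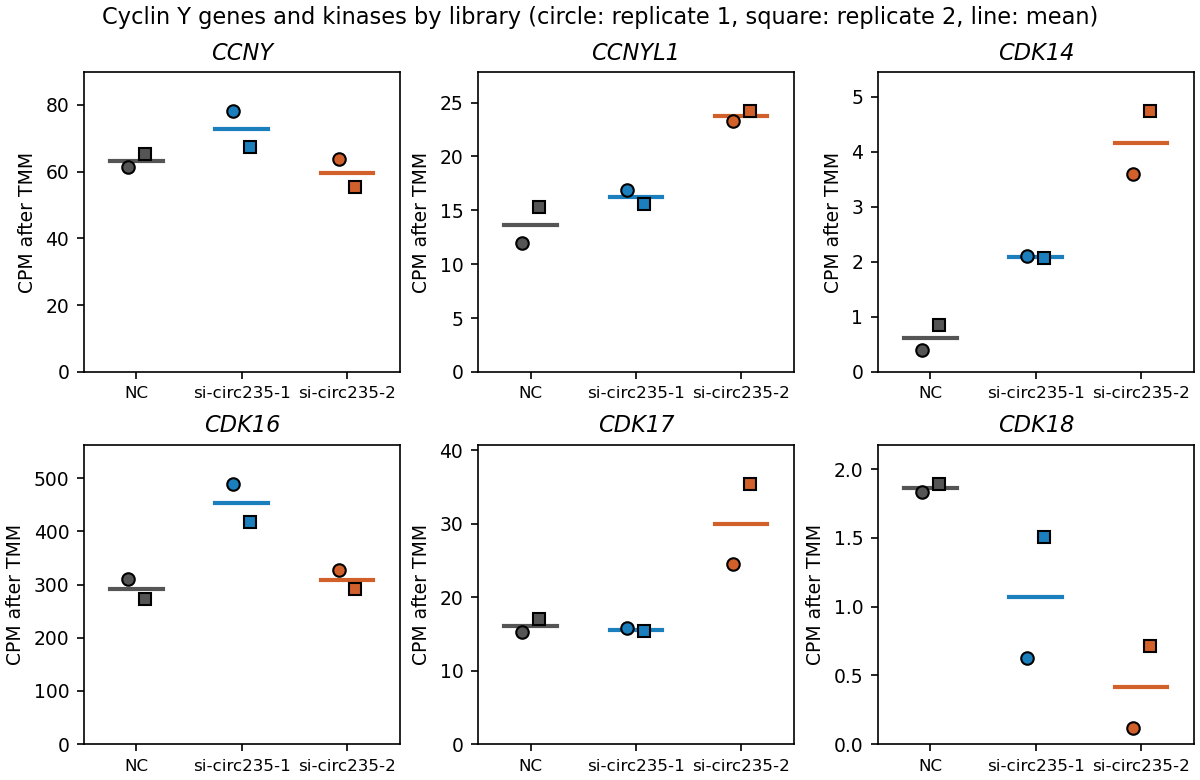
CPM after TMM (vertical axis, from 0, with its own scale for each gene) in each library of NC, si-circ235-1 and si-circ235-2, with circles for replicate 1, squares for replicate 2 and a line at the mean. CCNYL1, CDK14 and CDK17 were higher in both si-circ235-2 libraries than in both NC libraries, CDK18 was lower, and CDK16 was higher in both si-circ235-1 libraries.

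CCNY, the host gene, had 934 and 1066 counts in NC, 1116 and 1207 under si-circ235-1, and 1083 and 1162 under si-circ235-2. On the CPM scale this came to 61.3 and 65.2 in NC, 78.1 and 67.4 under si-circ235-1, and 63.9 and 55.5 under si-circ235-2. Both si-circ235-1 libraries lay above NC, while the si-circ235-2 libraries overlapped NC, with its second library the lowest of the 6. The mean was 63.2 ± 2.75 CPM (SD, n = 2) in NC, 72.7 ± 7.56 (n = 2) under si-circ235-1 and 59.7 ± 5.91 (n = 2) under si-circ235-2. The log2 fold change was 0.20 with a 95% interval of -0.20 to 0.60 for si-circ235-1 (edgeR adjusted p = 0.533) and -0.08 with an interval of -0.49 to 0.32 for si-circ235-2 (adjusted p = 0.766). Neither siRNA's difference from NC was called. In this fit the intervals for CCNY mRNA reached down to -0.20 and -0.49 on the log2 scale, and the corrected fit given next went below the second of these. For si-circ235-2 the sign depended on the scaling, with a log2 fold change of 0.17 without TMM factors, and it was -0.59 after correction for the length and GC content of transcripts (adjusted p = 0.0213).

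CCNYL1, which encodes the cyclin Y-like protein closest to cyclin Y, lies at chr2:207711540-207761839 (ENSG00000163249.11). It had 182 and 250 counts in NC, 241 and 279 under si-circ235-1, and 395 and 506 under si-circ235-2. The CPM values were 11.9 and 15.3 in NC, 16.9 and 15.6 under si-circ235-1, and 23.3 and 24.2 under si-circ235-2. The si-circ235-2 libraries were the highest pair and lay well apart from the other 4, whereas the si-circ235-1 libraries came just above the second NC library. CCNYL1 rose 1.74-fold under si-circ235-2 (log2 fold change 0.80, SE 0.23, 95% interval 0.30 to 1.31, edgeR adjusted p = 0.0228). For si-circ235-1 the log2 fold change was 0.25, with an interval of -0.25 to 0.76 (adjusted p = 0.537). The si-circ235-2 call was lost without NC replicate 1 (0.63, adjusted p = 0.200) and in the fit corrected for length and GC content (0.50, adjusted p = 0.0561).

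Within a library the balance of the cyclin Y genes does not depend on scaling between libraries. Per exonic base, CCNY exceeded CCNYL1 by 4.21 and 3.49 times in NC, 3.80 and 3.55 times under si-circ235-1, and 2.25 and 1.88 times under si-circ235-2. The si-circ235-2 ratios were the lowest of the 6 libraries and did not overlap the others, which did overlap each other. CCNY made up 79.3 ± 2.15% (SD, n = 2) of the summed cyclin Y mRNA in NC, 78.6 ± 0.810% (n = 2) under si-circ235-1 and 67.3 ± 2.76% (n = 2) under si-circ235-2.

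CDK14, the PFTAIRE kinase that partners cyclin Y at the membrane, spans chr7:90466424-91210590 (ENSG00000058091.16) and was scarce in NC. It had 6 and 14 counts in NC, 30 and 37 under si-circ235-1, and 61 and 99 under si-circ235-2. The CPM values were 0.394 and 0.856 in NC, 2.10 and 2.07 under si-circ235-1, and 3.60 and 4.73 under si-circ235-2. The conditions did not overlap, and their order was NC, si-circ235-1, si-circ235-2. Counting error alone gave an exact Poisson 95% interval of 0.144 to 0.857 CPM in NC replicate 1 and 1.42 to 2.996 in si-circ235-1 replicate 1. The library with 6 counts lay under the 0.606 CPM minimum of the filter, which the other 5 libraries exceeded.

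CDK14 rose 6.57-fold under si-circ235-2 (log2 fold change 2.72, SE 0.45, 95% interval 1.73 to 3.70, edgeR adjusted p = 0.00290). This call was kept under all 14 alternatives run, with log2 fold changes of 2.27 to 3.39 and adjusted p-values up to 0.0389. Under si-circ235-1 the fold change was 3.28 (log2 1.71, SE 0.46, 95% interval 0.69 to 2.74), with an adjusted p of 0.0552 by edgeR that missed the threshold. Under 4 of the 14 alternatives this value passed it, DESeq2 (adjusted p = 0.0445), no filter on low counts (0.00814), the removal of the length and GC trend (0.0346) and the fit without si-circ235-2 replicate 1 (0.0457). The difference between the siRNAs was 1.00 on the log2 scale (95% interval 0.14 to 1.86, adjusted p = 0.0621). It was called under 4 of the 14 alternatives, without TMM factors (1.34, adjusted p = 0.0246), without the filter (0.0467), with only the conditions compared (0.0451) and without NC replicate 1 (0.0469).

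CLDN12, a claudin gene on the same strand, overlaps CDK14 and shares 201 of its 6841 exonic bases (2.94%), so a few reads cannot be assigned to one of them by position alone. CLDN12 had 27.1 and 29.6 CPM in NC, 37.8 and 42.3 under si-circ235-1, and 38.1 and 47.9 under si-circ235-2, and it too was higher under si-circ235-2 (log2 fold change 0.60, edgeR adjusted p = 0.0432). How the counting treated the shared bases is not given in the sources used here, and their part in the CDK14 difference was not tested. The other overlapping annotations of CDK14 (TVP23CP1, AC002456.1, PTP4A1P3, AC002456.2 and AC006153.1) had 0 or 1 count in each library.

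CDK16, the PCTAIRE kinase that cyclin Y also activates, lies at chrX:47217860-47229997 (ENSG00000102225.15) and had the highest level of the 6 per exonic base in every library. It had 4725 and 4449 counts in NC, 7000 and 7468 under si-circ235-1, and 5532 and 6097 under si-circ235-2. The CPM values were 309.9 and 272 in NC, 489.7 and 417 under si-circ235-1, and 326 and 291 under si-circ235-2. The si-circ235-1 libraries were the highest pair, and the si-circ235-2 libraries overlapped those of NC. The mean was 291 ± 26.9 CPM (SD, n = 2) in NC, 453 ± 51.5 (n = 2) under si-circ235-1 and 309 ± 24.7 (n = 2) under si-circ235-2. For si-circ235-1 the fold change was 1.56 (log2 0.64, SE 0.19, 95% interval 0.21 to 1.07), and edgeR's adjusted p of 0.0748 missed the threshold. DESeq2 (adjusted p = 0.0130) and the fit with the length and GC trend removed (0.93, adjusted p = 0.00406) called it. For si-circ235-2 the log2 fold change was 0.09 with an interval of -0.34 to 0.51 (adjusted p = 0.768).

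CDK17, a PCTAIRE kinase best known from the brain, lies on the minus strand at chr12:96278261-96400560 (ENSG00000059758.7). It had 233 and 278 counts in NC, 226 and 275 under si-circ235-1, and 416 and 742 under si-circ235-2. The CPM values were 15.3 and 17.0 in NC, 15.8 and 15.4 under si-circ235-1, and 24.5 and 35.5 under si-circ235-2. NC and si-circ235-1 overlapped, and both si-circ235-2 libraries stood above them, though far from each other. CDK17 rose 1.86-fold under si-circ235-2 (log2 fold change 0.90, SE 0.24, 95% interval 0.36 to 1.43, edgeR adjusted p = 0.0185), while the log2 fold change for si-circ235-1 was -0.05 (interval -0.59 to 0.49, adjusted p = 0.925). The si-circ235-2 call needed both NC replicate 1 (0.82 without it, adjusted p = 0.144) and si-circ235-2 replicate 2 (0.60 without it, adjusted p = 0.115).

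CDK18, the third PCTAIRE kinase, lies at chr1:205504595-205532793 (ENSG00000117266.15) and was near the limit of detection. It had 28 and 31 counts in NC, 9 and 27 under si-circ235-1, and 2 and 15 under si-circ235-2. The CPM values were 1.84 and 1.89 in NC, 0.630 and 1.51 under si-circ235-1, and 0.118 and 0.717 under si-circ235-2. Every siRNA library lay below both NC libraries, and the libraries of the siRNAs overlapped each other. CDK18 exceeded the filter minimum in 4 libraries, both of NC and 1 of each siRNA. The 2 counts of si-circ235-2 replicate 1 gave an exact Poisson 95% interval of 0.0143 to 0.426 CPM. CDK18 was 4.23-fold lower under si-circ235-2 (log2 fold change -2.08, SE 0.70, 95% interval -3.63 to -0.54, edgeR adjusted p = 0.0434), and its summed counts gave a ratio to NC of 0.241 with an exact 95% counting interval of 0.131 to 0.418. For si-circ235-1 the log2 fold change was -0.78 with an interval of -2.19 to 0.64 (adjusted p = 0.496). The si-circ235-2 call was lost in 6 of the 14 alternatives, among them the fits without NC replicate 1 (-2.11, adjusted p = 0.177), without NC replicate 2 (-2.06, adjusted p = 0.111), without si-circ235-2 replicate 1 (-1.37, adjusted p = 0.208) and without TMM factors (-1.81, adjusted p = 0.0770).

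The siRNAs differed from each other in CDK16 and CDK17 and in opposite directions. In si-circ235-2 against si-circ235-1, edgeR called 2 of the 6 genes, 1 higher and 1 lower, where it called 39.7% of all tested genes (21.1% higher, 18.6% lower). CDK17 was higher under si-circ235-2 by 0.95 on the log2 scale (SE 0.24, 95% interval 0.41 to 1.48, adjusted p = 0.0110). CDK16 was lower, with a log2 fold change of -0.55 (SE 0.19, 95% interval -0.98 to -0.13, adjusted p = 0.0422). The CDK17 call needed si-circ235-1 replicate 2 (adjusted p = 0.0742 without it) and si-circ235-2 replicate 2 (0.0690 without it), and the CDK16 call was lost on leaving out any one of the 4 libraries compared (adjusted p = 0.0790 to 0.223), under plain library totals (-0.22, adjusted p = 0.325) and without the filter (0.0527). CCNYL1 differed by 0.55 (95% interval 0.05 to 1.05, adjusted p = 0.0759), CDK18 by -1.31 (-2.91 to 0.29, adjusted p = 0.175) and CCNY by -0.28 (-0.69 to 0.12, adjusted p = 0.238). After correction for length and GC content the CCNY difference was -0.75 and was called (adjusted p = 0.00431), and without TMM factors it was 0.048. The CDK18 difference was called without si-circ235-2 replicate 2 (-3.12, adjusted p = 0.0395).

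**Figure D2:**
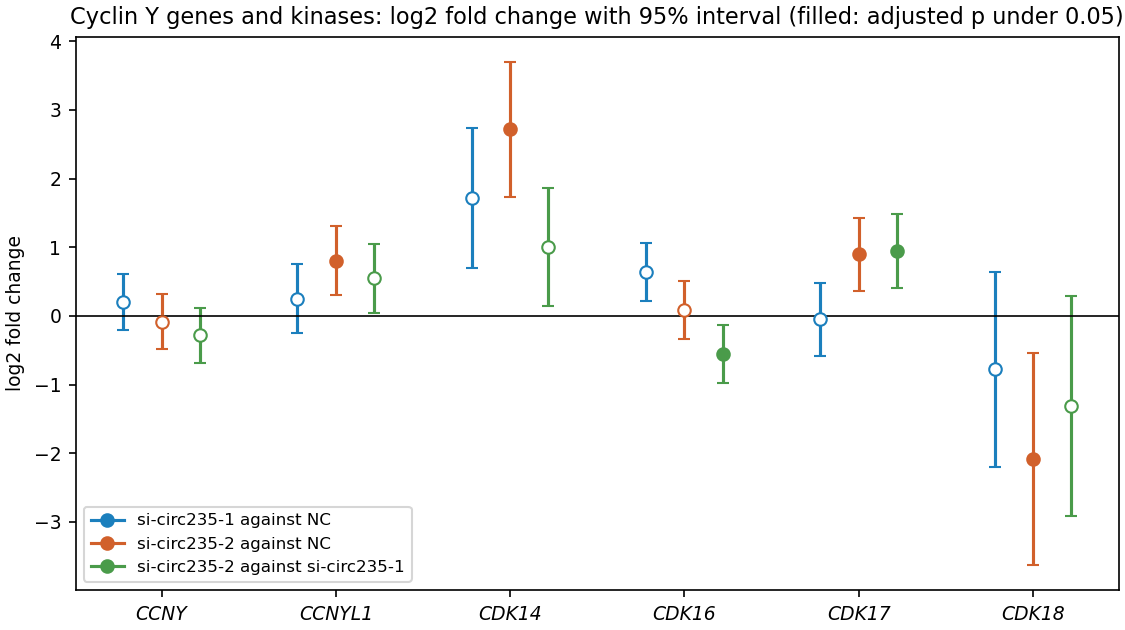
Log2 fold change (vertical axis) of the 6 genes (horizontal axis) for each siRNA against NC and for si-circ235-2 against si-circ235-1, with bars for the 95% interval of the edgeR fit and filled points where the adjusted p was under 0.05. The CDK14 intervals lie above 0 in all 3 comparisons, the CCNY intervals span 0 in all 3, and CDK16 and CDK17 are the filled points of the comparison between siRNAs.

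The CPM values of a gene whose libraries did not overlap need the background, since this was common in these data. The libraries of si-circ235-1 and NC did not overlap for 5 of the 6 genes, all but CDK17, and for 55% of all tested genes. Those of si-circ235-2 and NC did not overlap for CCNYL1, CDK14, CDK17 and CDK18, 4 of the 6, and for 71.4% of all tested genes. The siRNAs did not overlap each other for 5 of the 6 genes, all but CDK18, and for 72.1% of all tested genes.

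To compare levels between genes, counts were divided by exonic length and scaled to a fixed total within each library (TPM), without TMM, so the order below holds within a library and the values are not compared across conditions. In NC the mean was 122.6 ± 7.04 TPM (SD, n = 2) for CDK16, 30.6 ± 5.88 for CCNY, 8.11 ± 2.59 for CCNYL1, 6.86 ± 1.53 for CDK17, 0.757 ± 0.130 for CDK18 and 0.263 ± 0.170 for CDK14. CCNYL1 and CDK17 were neighbours whose ranges overlapped (6.28 and 9.94 TPM against 5.78 and 7.94), and the other neighbours in this order did not overlap. CDK18 exceeded CDK14 in both NC libraries (0.666 against 0.142 and 0.849 against 0.383 TPM), and CDK14 exceeded CDK18 in all 4 siRNA libraries. In si-circ235-2 replicate 1 the pair was at 1.87 TPM for CDK14 and 0.0615 for CDK18.

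**Figure D3:**
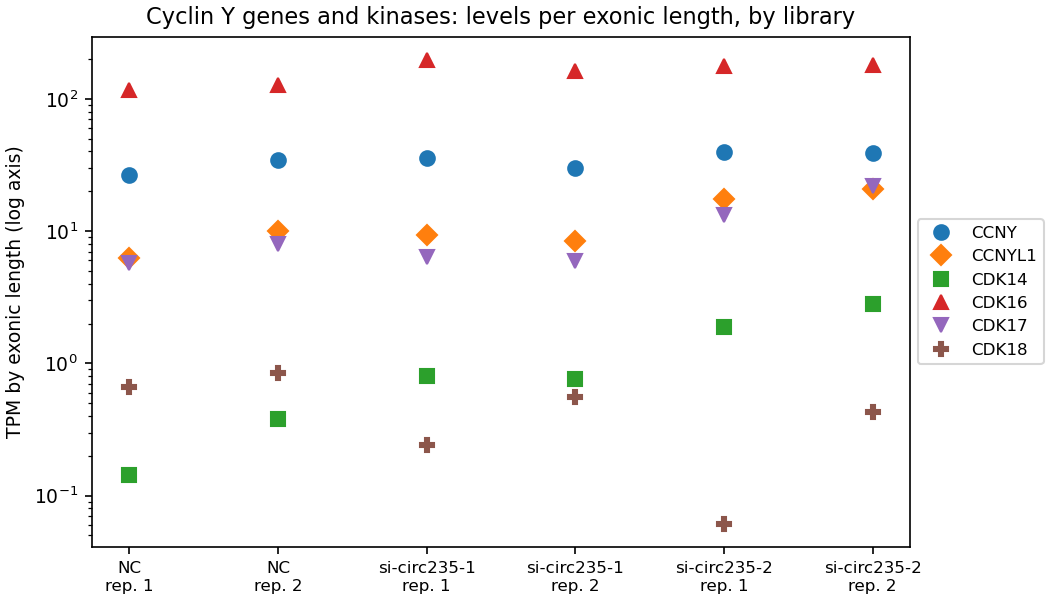
TPM by exonic length (vertical axis, log scale) of the 6 genes in each of the 6 libraries (horizontal axis). CDK16 is the highest and CCNY the next in every library, CCNYL1 and CDK17 run close together, and CDK14 lies below CDK18 in NC and above it in the siRNA libraries.

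CDK16 made up most of the summed mRNA of the 4 kinases per exonic base, with 94.7% and 93.3% in NC, 96.4% and 95.7% under si-circ235-1, and 92.1% and 87.8% under si-circ235-2. Its share was highest under si-circ235-1 and lowest under si-circ235-2, with no overlap between the conditions. CDK17 took 4.65% and 5.81% in NC, 3.10% and 3.51% under si-circ235-1, and 6.90% and 10.6% under si-circ235-2. CDK14 took 0.115% and 0.280% in NC, 0.394% and 0.452% under si-circ235-1, and 0.968% and 1.36% under si-circ235-2. The share of CDK14 thus followed the same order of conditions as its CPM, and it stayed a small part of the kinase mRNA in every library. The ratio of CDK16 to CCNY was 4.45 and 3.67 in NC, 5.52 and 5.45 under si-circ235-1, and 4.497 and 4.62 under si-circ235-2, so the si-circ235-1 libraries were again the highest pair.

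The 6 genes differ in base composition, and the fold changes of all tested genes varied with base composition too. The longest transcript held 40.2% GC in CDK14, 40.9% in CDK17, 42.7% in CCNYL1 and 43.7% in CCNY, but 57.0% in CDK16 and 59.6% in CDK18. Tested genes were ranked by GC content into 10 equal groups, and the median log2 fold change for si-circ235-2 was 0.13 in the group of CDK14 and CDK17, 0.26 in that of CCNYL1, 0.33 in that of CCNY, -0.18 in that of CDK16 and -0.32 in that of CDK18. CDK14 lay above 99.4% of the genes of its own group, CDK17 above 88.7%, CCNYL1 above 78.4%, CDK16 above 62.5%, CCNY above 29.9% and CDK18 above 1.18%. For si-circ235-1 the percentile was again 99.4 for CDK14 and was 92.8 for CDK16, whose group had a median of -0.20. The ranks describe the genes among others of like GC content and carry no test. With the trend over length and GC content removed, the log2 fold change for si-circ235-2 was 2.42 for CDK14 (edgeR adjusted p = 0.00523), 0.64 for CDK17 (0.0251), 0.20 for CDK16 (0.253) and -1.95 for CDK18 (0.0880).

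**Figure D4:**
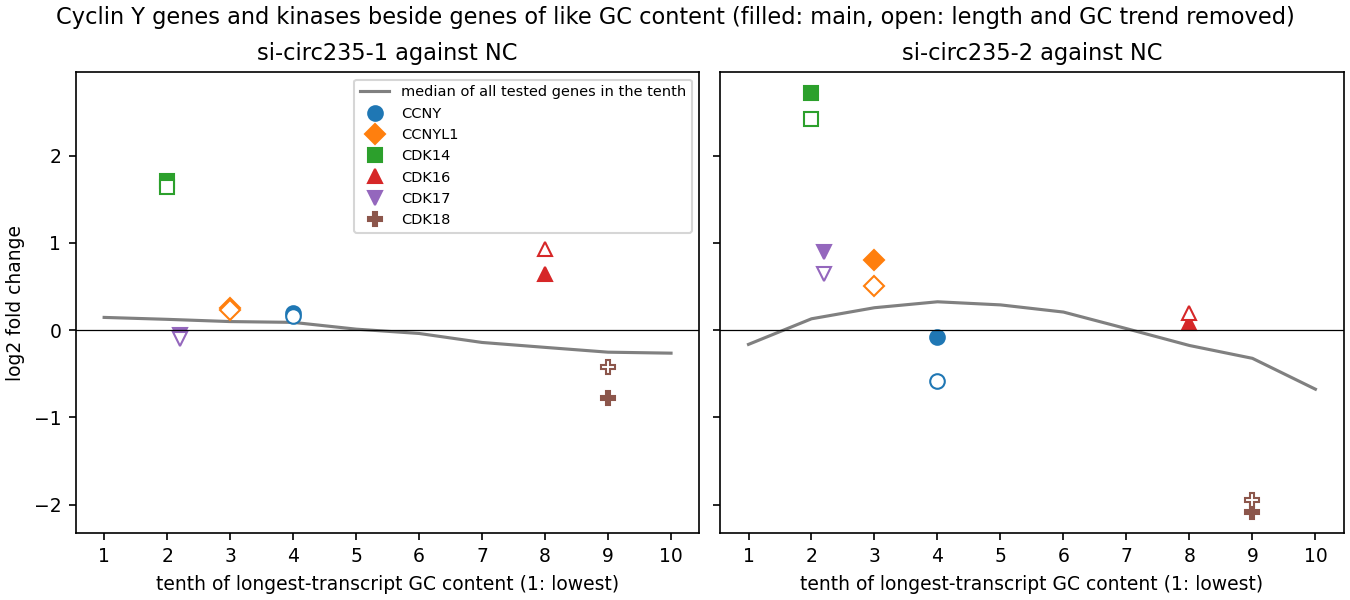
Log2 fold change (vertical axis) of the 6 genes for si-circ235-1 and si-circ235-2 against NC, placed by the GC content of their longest transcript (horizontal axis, 10 equal groups of tested genes, 1 the lowest). The grey line is the median of all tested genes of each group, filled points are the values as reported and open points those corrected for length and GC content, and CDK14 stands far above the line in both panels while CDK18 stands below it.

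For each of the 6 genes, the 3 genes whose log2 CPM followed it most closely over the 6 libraries were taken from the tested genes with a mean of at least 5 CPM. CCNY was followed most closely by ELAVL1 (Pearson r = 0.989), DNAJC7 (0.984) and OAZ2 (0.983), and CDK16 by GNAI2, DNAJB1 and CTSL (0.991 each). CCNYL1 was followed by KCTD20 (0.999), DCAF7 (0.997) and PIP4K2B (0.997), and CDK14 by genes that include SETD7 (0.999) and DYNC1LI2 (0.998). CDK17 was followed by MYCBP2 (0.997), SMG1 (0.997) and CTTNBP2NL (0.995), and CDK18 by UBE2V2 (0.993), FBXO5 (0.992) and ZCCHC10 (0.991). Such correlations were common, since 1030 of 10377 genes had r over 0.9 with CCNYL1, 877 with CDK17, 600 of 10378 with CDK14, 202 with CDK16, 168 with CDK18 and 91 with CCNY. The 6 points form 3 pairs of a condition and share library depth and base composition, so these values are a description only.

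Of the genes around the cyclin Y complexes, 93 were listed and 86 tested, in 6 lists. edgeR called 4 of the 86 for si-circ235-1 and 29 for si-circ235-2, against 5.88% and 31.4% of all tested genes. For si-circ235-2 the called share of the tested genes was 42.3% in the Wnt receptor list, 11.1% in the Wnt feedback targets, 28.6% in the 14-3-3 genes, 50% in the myristoylation enzymes, 35.7% in the other kinases and 30.8% in the other cyclins. These lists hold few genes, and their shares are given as a description beside the 31.4%. Of the Wnt receptor complex and beta-catenin list, 26 of 27 genes were tested, and it held the receptors, the kinases that phosphorylate LRP6 and the beta-catenin destruction complex. For si-circ235-1 it had 14 genes higher and 12 lower, 1 called in each direction and a median log2 fold change of 0.03, against -0.033 over all tested genes. For si-circ235-2 it had 17 higher and 9 lower, 8 called higher and 3 called lower and a median of 0.14, against -0.0038 over all tested genes. The si-circ235-2 calls became 8 higher and 0 lower without TMM factors and 4 higher and 2 lower after correction for length and GC content.

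GSK3B, a kinase that both marks beta-catenin for destruction and phosphorylates LRP6, was the one gene of this list called higher under both siRNAs. Its CPM was 39.6 and 49.7 in NC, 103 and 93.2 under si-circ235-1, and 117 and 123 under si-circ235-2, with no overlap with NC. The log2 fold change was 1.14 for si-circ235-1 (edgeR adjusted p = 0.0119) and 1.43 for si-circ235-2 (adjusted p = 0.00179), and the si-circ235-1 call was lost without NC replicate 1 or si-circ235-1 replicate 2. DVL2, which carries the signal from Frizzled receptors, was called lower under si-circ235-1 (-0.86, adjusted p = 0.0214), and this call was lost without any one of the NC or si-circ235-1 libraries. Under si-circ235-2 the casein kinases CSNK1G1, which acts on LRP6, and CSNK1A1, which primes beta-catenin, rose by 1.66 (adjusted p = 0.00260) and 1.32 (0.00241) on the log2 scale.

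The genes of the list called lower under si-circ235-2 were the receptor FZD2 (-0.75, edgeR adjusted p = 0.0276), CSNK1G2 (-0.68, adjusted p = 0.0295) and GSK3A (-0.64, adjusted p = 0.0353). After correction for length and GC content FZD2 turned to 0.023, CSNK1G2 was at -0.10 (adjusted p = 0.559) and neither was called. LRP6, the substrate of the cyclin Y kinase complex, was named after its value was seen. It had 9.45 and 11.4 CPM in NC, 10.003 and 11.6 under si-circ235-1, and 20.5 and 29.1 under si-circ235-2, so that it rose under si-circ235-2 (log2 fold change 1.25, adjusted p = 0.00566) and overlapped NC under si-circ235-1. CAPRIN2, which binds LRP6 and cyclin Y and was also named after its value was seen, had a log2 fold change of 0.63 for si-circ235-2 (adjusted p = 0.0342). Without NC replicate 1 both calls were lost (adjusted p = 0.0753 and 0.230), and CAPRIN2 was at 0.33 (0.128) after the length and GC correction.

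Of the 12 Wnt feedback targets, genes that beta-catenin and TCF factors switch on, 9 were tested. All 9 had a log2 fold change below 0 for si-circ235-1, with a median of -0.51, as did 7595 of the 14415 tested genes. Some of the 9 were scarce, with mean levels in NC of 0.789 CPM for AXIN2, 1.11 for SP5 and 2.26 for NKD1. edgeR called 0 of them and DESeq2 0, and 3 had a p under 0.05 before adjustment, as did 3644 of the 14415 tested genes. Once the length and GC trend was taken out, 8 of the 9 were below 0 (median -0.43). For si-circ235-2, 3 lay above 0 and 6 below it (median -0.46), and the median was -0.033 once the trend was taken out. One gene was called, NKD2, a Dishevelled-binding inhibitor of the pathway, with 25.1 and 18.4 CPM in NC and 13.7 and 12.6 under si-circ235-2 (log2 fold change -0.72, adjusted p = 0.0389). The NKD2 value was 0.16 in that fit.

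All 7 genes for 14-3-3 proteins, the phosphoserine-binding adaptors of cyclin Y and CDK16, were tested. For si-circ235-1, 6 had a log2 fold change above 0 and 1 below it (median 0.43). edgeR called 0 of them and DESeq2 1, and 4 had a p under 0.05 before adjustment. Of the 14415 tested genes, 6817 had a log2 fold change above 0 and 3644 had such a p. For si-circ235-2, 6 again had a log2 fold change above 0 and 1 below it (median 0.29), with 1 called in each direction. YWHAG rose under si-circ235-2 (log2 fold change 1.02, edgeR adjusted p = 0.00327), from 90.6 and 105 CPM in NC to 200.1 and 198. SFN fell by 0.96 on the log2 scale (adjusted p = 0.0207), a call lost after correction for length and GC content (-0.12, adjusted p = 0.585).

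Of the 4 N-myristoylation enzymes, which trim the first methionine and attach the lipid that cyclin Y carries, edgeR called 0 for si-circ235-1 (DESeq2 called 0, and 0 had a p under 0.05 before adjustment). For si-circ235-2 the methionine aminopeptidases went in opposite directions, METAP1 by 0.73 (adjusted p = 0.0251) and METAP2 by -0.63 (adjusted p = 0.0441). Without NC replicate 1 neither was called.

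Of the other cyclin-dependent kinases, 14 of 17 were tested. For si-circ235-1, 6 were higher and 8 lower, edgeR and DESeq2 each called 0, and 1 had a p under 0.05 before adjustment. For si-circ235-2, 7 were higher and 7 lower, with 2 called higher and 3 called lower. Those called higher were the transcription elongation kinases CDK12, from 38.6 and 42.4 CPM in NC to 113 and 116 (log2 fold change 1.504, edgeR adjusted p = 0.00179), and CDK13 (0.88, adjusted p = 0.0130), the second of which was at 0.092 (adjusted p = 0.718) and not called after correction for length and GC content. Those called lower were CDK10 (-1.23, adjusted p = 0.00341), CDK5 (-1.11, adjusted p = 0.00560) and the mitotic kinase CDK1 (-1.20, adjusted p = 0.0119). CDK5 and CDK10 overlap a gene on the opposite strand, and the libraries carry no strand information.

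All 26 other cyclins and cyclin-like activators were tested, with 13 higher and 13 lower for si-circ235-1 and 17 higher and 9 lower for si-circ235-2. For si-circ235-1 edgeR called CCND2, a G1 cyclin, higher (log2 fold change 0.97, adjusted p = 0.0442) and CCNK, the cyclin partner of CDK12 and CDK13, lower (adjusted p = 0.0352). CCNK had 8 and 30 counts in NC, 0 and 2 under si-circ235-1, and 54 and 69 under si-circ235-2, and the ratio of the summed counts under si-circ235-1 to those in NC was 0.0517 with an exact 95% counting interval of 0.00604 to 0.200. It overlaps CCDC85C on the opposite strand. The CCND2 call was lost without any one of the NC or si-circ235-1 libraries, and the CCNK call without NC replicate 2 or either si-circ235-1 library. For si-circ235-2, 4 were called higher, led by CCNT1, the cyclin of the elongation kinase CDK9 (1.37, adjusted p = 0.00267), CCNJ (1.18, adjusted p = 0.0170) and CCNI (0.58, adjusted p = 0.0371). Another 4 were called lower, led by CCNQ, the activator of CDK10 (-1.01, adjusted p = 0.00616), CCNH of the CDK7 complex (-0.76, adjusted p = 0.0188) and CCNC of the Mediator kinase module (-0.75, adjusted p = 0.0211). After correction for length and GC content CCNQ was at -0.35 (adjusted p = 0.125) and CCNH at -0.094 (adjusted p = 0.646), neither of them called. Without TMM factors the si-circ235-2 calls of this list became 6 higher and 1 lower, and CCNH and CCNC were not called.

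Among the list genes named for si-circ235-2, GSK3B, CSNK1A1, CSNK1G1, YWHAG, CDK12, CDK10 and CCNT1 stayed called without NC replicate 1, and the others did not. Without si-circ235-2 replicate 2, SFN, METAP1, CCNI, NKD2, FZD2, CSNK1G2, GSK3A and CAPRIN2 were no longer called, and without its replicate 1 METAP2, CCNI, CCNH, CCNC and NKD2 were not. The calls for METAP2, CCNC and GSK3A also needed NC replicate 2, and those for METAP2, CCNI and NKD2 needed each si-circ235-1 library in the shared fit.

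**Figure D5:**
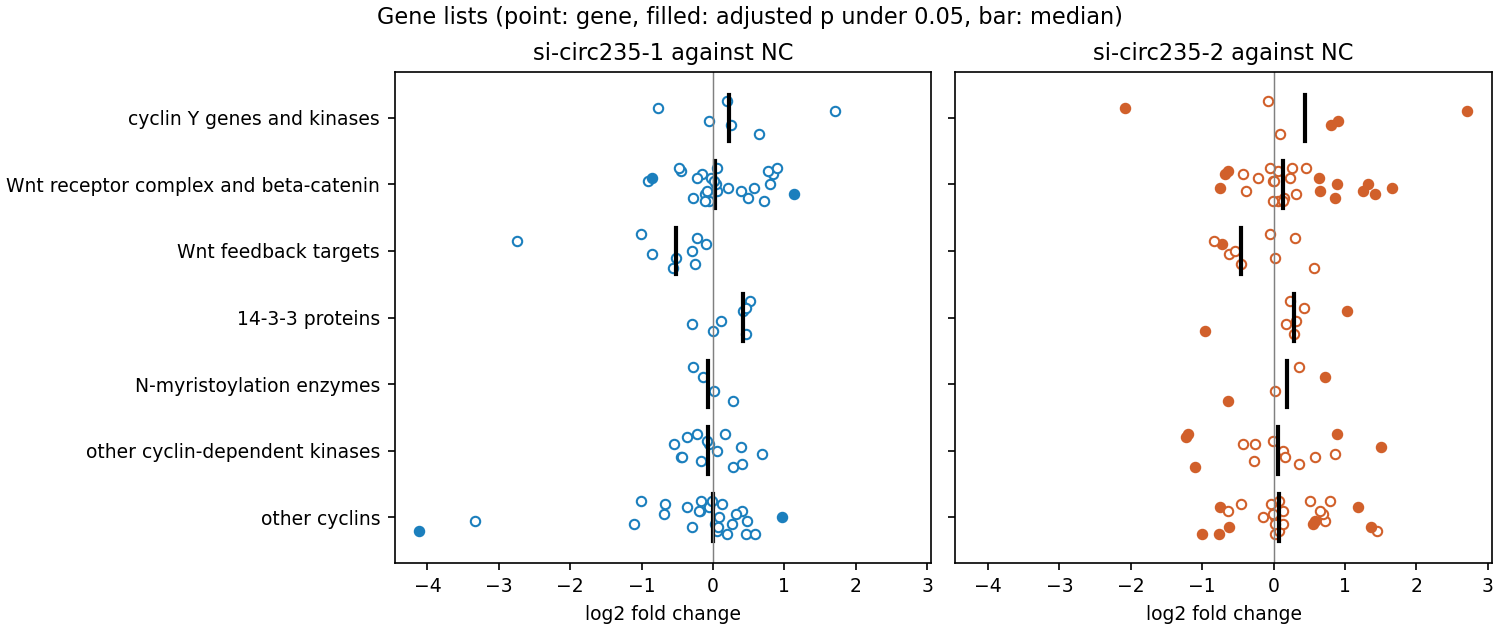
Log2 fold change (horizontal axis) of every tested gene of the cyclin Y genes and kinases and of the 6 lists (rows) for si-circ235-1 and si-circ235-2 against NC, with filled points where the edgeR adjusted p was under 0.05 and a bar at the median. The list medians lie between -0.51 and 0.43 for si-circ235-1, and filled points stand on both sides of 0 within most lists for si-circ235-2.

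Other genes annotated within CCNY were the antisense gene AL117336.3, which shares no exonic base with it, and RNU6-1167P. AL117336.3 had 73 and 60 counts in NC, 38 and 54 under si-circ235-1, and 59 and 99 under si-circ235-2. The log2 fold changes were -0.57 (edgeR adjusted p = 0.309) and -0.04 (adjusted p = 0.944), and neither was called. RNU6-1167P had 0 counts in every library, as did AC096772.1, which shares 564 exonic bases with CCNYL1 on the opposite strand, MIR4775 in CCNYL1 and RNU4-24P and AC125612.1 in CDK17. CDK16 and CDK18 overlap no other annotated gene.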

How the data were processed

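The authors selected mRNA on oligo dT beads for 6 T24 libraries, and the sequencing was not strand-specific. They deposited whole-number read counts per gene with no normalization. The submitters' processing notes name hg38, FastQC, cutadapt and STAR, while the sources used here give neither the counting tool nor the annotation. Depth and precision are given with the results, and intervals on counts cover counting error only. Unstranded counting cannot separate overlapping genes.

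Counts were fitted in R 4.3.3 with edgeR 4.0.16 over all 6 libraries (filterByExpr with a minimum count of 10, TMM, quasi-likelihood test, Benjamini-Hochberg adjustment over all 14415 tested genes, threshold 0.05). The fit was tested on simulated data, but no result of that test is given or used here. Loci, transcript lengths, GC content and sequences came from GENCODE 29 (GRCh38), which matched 99.55% of identifiers. It may differ from the authors' annotation. Alternatives were DESeq2 1.42.0, other scalings, no filter, a replicate block, a removed length and GC trend (natural splines, 5 degrees of freedom), fits of the conditions compared alone, and each library left out. DESeq2 used its Wald test without independent filtering.

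The genes and lists were chosen with earlier results of these data known. Besides the 6 genes, the text names overlapping genes, up to 3 called genes with the lowest p per list, direction and siRNA, and the 3 genes most like each, and marks exceptions. No group was left out. Some genes that these rules name are not reported here.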

Additional observations from a re-analysis of the deposited data

Results flagged for a closer look

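CDK17 and CDK16 were flagged because edgeR called a difference between the siRNAs for them in the direct test. CDK17 was 0.95 higher on the log2 scale under si-circ235-2 than under si-circ235-1, with its si-circ235-2 libraries at 24.5 and 35.5 CPM and its si-circ235-1 libraries at 15.8 and 15.4. CDK16 had a log2 fold change of -0.55 in the same comparison, with 326 and 291 CPM under si-circ235-2 and 489.7 and 417 under si-circ235-1. This comparison called 33.3% of the 6 genes, against 39.7% of all tested genes. Both calls depended on single libraries, as given above, and CDK16 was at -0.22 without TMM factors.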

How the results depend on the processing

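For si-circ235-1 against NC, 847 genes became 1448 with DESeq2, 1678 without the filter, 1969 with the length and GC trend removed, 1292 with that trend and the replicate block, 1642 with only the conditions compared, and 0 to 1482 with 1 library left out. The number of the 6 genes called went from 0 to 2, 1, 2, 1 and 0 under those settings, 1 with the replicate block alone and 0 to 1 with a library left out, and the list genes from 4 to 8, 8, 14, 7 and 9, 7 with the block alone and 0 to 7. For si-circ235-2 the calls with a library left out were 769 to 4240 genes (4530 in all libraries), 1 to 4 of the 6 genes and 7 to 27 list genes, and 17 list genes were called with the trend removed and the replicate block. Between the siRNAs they were 2817 to 5558 genes (5725), 0 to 3 of the 6 genes and 17 to 34 list genes. The causes of these changes were not tested. Where a library was left out the fit also had fewer samples, and a lone library was assumed to vary like the other conditions.

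The sign turned for CDK17 under si-circ235-1 without NC replicate 2 (-0.13 to 0.065 over the libraries left out), for CCNY under si-circ235-2 without TMM factors (0.17) and without si-circ235-2 replicate 2 (-0.19 to 0.016 over the libraries left out), for CCNY between the siRNAs without TMM factors (0.048), and for NKD2 (0.16 without and 0.16 with the replicate block) and FZD2 (0.023 and 0.024) with the trend removed. Calls for si-circ235-1 went from 323 higher and 524 lower to 179 and 529 without TMM factors and 1178 and 791 with the trend removed, and calls between the siRNAs from 3047 and 2678 to 4534 and 1496 and 2510 and 3279. Over the 6 genes, 211 of the alternative values kept sign and side of the threshold, 19 lost a call, 18 gained one and 4 turned. Of 28 calls named in the lists, 20 were lost without NC replicate 1, 5 to 8 without each other library, 8 without TMM factors, 8 with the trend removed and 11 with the trend removed and the block.

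The labels do not say whether replicate numbers pair the libraries. The differences between replicates correlated at -0.09, 0.15 and 0.14 between conditions, which does not settle pairing. The replicate block gave 937, 4750 and 6043 calls, against 847, 4530 and 5725 without it. Under it CDK16 was called for si-circ235-1 (adjusted p = 0.0495). Depth limited CDK14 and CDK18, the genes with fewest counts.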
